A study of Rattus norvegicus with 8 samples.

Results

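Lrrk2, Tmem175 and Idua were followed across development in purified rat retinal ganglion cells (RGCs), the neurons whose axons form the optic nerve. The 3 genes are 3 of the 32623 Ensembl gene IDs counted in every library, and all 3 passed the filter on low counts that left 14043 genes for testing. They were selected on their P11-against-E21 values in these same libraries, so their levels and stage differences are given as a description, with no test and no p-value. RNA was sequenced from 4 libraries of RGCs taken on embryonic day 21 (E21) and 4 taken on postnatal day 11 (P11), 8 libraries in all, each stage from independent litters of Sprague Dawley rats with no treatment or engineered allele named. RGCs were obtained from dissociated retinas by immunopanning, in which a dish coated with an antibody to macrophages first removes those cells and a dish coated with an antibody to the surface protein Thy1 then captures RGCs. Papain was used in a larger amount at P11 than at E21, so dissociation differed with stage. Ribosomal RNA was depleted before library preparation and all libraries ran in 1 lane.

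LRRK2 is a large protein with both a kinase and a GTPase domain. It phosphorylates a set of Rab GTPases, the switches that direct vesicle traffic, and dominant mutations in its gene are among the best known causes of inherited Parkinson's disease. TMEM175 is an ion channel of late endosomes and lysosomes that conducts potassium ions and protons and helps to set lysosomal pH, and variants at its locus alter the risk of Parkinson's disease. IDUA is alpha-L-iduronidase, the lysosomal enzyme that removes iduronic acid from heparan sulfate and dermatan sulfate, and its loss causes mucopolysaccharidosis type I. It is not itself an established Parkinson's disease gene, but it lies close to TMEM175 at the same risk locus. Lysosomes receive cargo from endocytosis and autophagy, which in a neuron with a long axon includes material carried back from the axon to the soma.

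In the RefSeq annotation of the rat assembly GRCr8, Lrrk2 is a protein-coding gene on chromosome 7, whereas Tmem175 and Idua are protein-coding genes on chromosome 14. Because the latter pair are near neighbours with different stage patterns, the sequences at their starts are shown for both. Each runs 5′ to 3′ on the gene's own strand, the minus strand, from 250 bases before to 10 bases after the annotated start, at chr14:1234009-1234268 for Tmem175 and chr14:1190919-1191178 for Idua in GRCr8. Capitals mark the E-box CACGTG, a motif bound by basic helix-loop-helix factors, among them the lysosomal regulator TFEB.
Tmem175: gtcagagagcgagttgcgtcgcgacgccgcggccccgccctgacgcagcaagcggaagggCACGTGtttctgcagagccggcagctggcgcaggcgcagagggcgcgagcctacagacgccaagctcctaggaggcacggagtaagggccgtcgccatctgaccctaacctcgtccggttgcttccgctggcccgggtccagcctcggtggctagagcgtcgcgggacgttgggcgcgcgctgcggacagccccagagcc
Idua: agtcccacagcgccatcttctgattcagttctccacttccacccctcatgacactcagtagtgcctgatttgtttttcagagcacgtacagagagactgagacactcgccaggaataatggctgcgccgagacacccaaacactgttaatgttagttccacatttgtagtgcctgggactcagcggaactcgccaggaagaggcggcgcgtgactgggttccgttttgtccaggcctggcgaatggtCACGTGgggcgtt
The E-box began at position -190 from the start in Tmem175 and at -3 in Idua. CACGTG reads the same on both strands, and it occurred in 6.42% of the 33469 RefSeq promoter windows of 300 bases (250 before and 50 after the start). Neither window held TCACGTGA, the longer form found in many lysosomal genes, which contains CACGTG and occurred in 0.777% of windows. Neither held TGACGTCA, the cyclic AMP response element, which occurred in 1.83% of windows. A match of letters is a description of these windows and not a measured binding site.

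Lrrk2 (ENSRNOG00000004048) had the largest stage difference of the 3 genes. At E21 it was counted 64, 80, 82 and 52 times in replicates 1 to 4, and its level was 4.28, 4.05, 4.30 and 3.80 CPM (counts scaled to a fixed library size after the TMM method, which corrects for differences in composition between libraries). At P11 it was counted 317, 376, 320 and 349 times, at 21.3, 22.3, 20.3 and 19.0 CPM. The stages did not overlap, and the lowest P11 level was 4.42 times the highest E21 level. The mean level was 4.11 ± 0.234 CPM (SD, n = 4) at E21 and 20.7 ± 1.38 CPM (SD, n = 4) at P11, a ratio of means of 5.04. The fitted log2 fold change, P11 over E21, was 2.33 ± 0.10 (SE). With its sign kept, this log2 fold change lay above that of 93.6% of the genes tested and above that of 61.2% of the genes called higher at P11. Here and in the rest of the text a gene counts as called where edgeR's quasi-likelihood test, adjusted by Benjamini-Hochberg over all 14043 genes, gave a p below 0.01 and its fitted log2 fold change exceeded 1 in size. This called 16.5% of genes higher at P11 and 8.16% higher at E21.

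Tmem175 (ENSRNOG00000000044) was also higher in every P11 library. Its E21 counts were 424, 570, 516 and 397 in replicates 1 to 4, at 28.4, 28.9, 27.1 and 29.0 CPM. Its P11 counts were 1108, 1264, 1140 and 1244, at 74.5, 74.8, 72.4 and 67.9 CPM. The stages did not overlap, and the lowest P11 level was 2.34 times the highest E21 level. Mean levels were 28.3 ± 0.891 CPM (SD, n = 4) at E21 and 72.4 ± 3.20 CPM (SD, n = 4) at P11, a ratio of means of 2.55 and a log2 fold change of 1.35 ± 0.05 (SE). With its sign kept, the log2 fold change lay above that of 87.5% of the genes tested, but above that of only 24.3% of the genes called higher at P11. A level without overlap in this direction was common, since 35.9% of the genes tested had all P11 levels above all E21 levels and 35.4% had the reverse.

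Idua (ENSRNOG00000000043) had nearly the same level at both stages. Its E21 counts were 626, 821, 809 and 598, at 41.9, 41.6, 42.4 and 43.7 CPM in replicates 1 to 4. Its P11 counts were 627, 730, 677 and 845, at 42.1, 43.2, 43.0 and 46.1 CPM. The stages overlapped: P11 replicates 1, 2 and 3 lay within the E21 range and P11 replicate 4 lay above it. Mean levels were 42.4 ± 0.941 CPM (SD, n = 4) and 43.6 ± 1.72 CPM (SD, n = 4), a ratio of means of 1.03. The log2 fold change was 0.04 ± 0.05 (SE), which lay above that of 52.5% of the genes tested. In bulk RNA a difference such as that of Lrrk2 or Tmem175 can come from the share of cells that carry the transcript or from the amount per cell, and fewer cells of a type and less RNA per cell cannot be told apart.

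**Figure D1:**
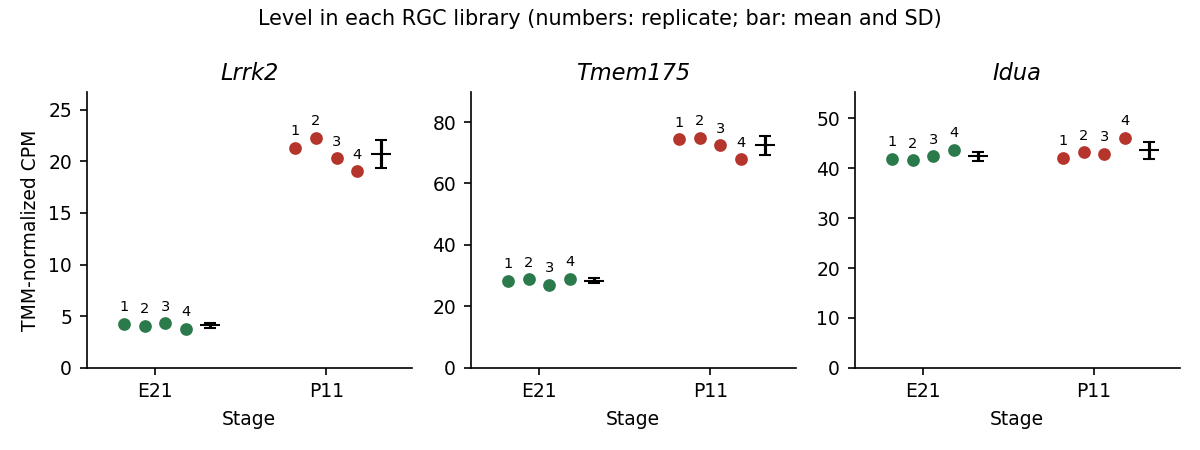
Level of Lrrk2, Tmem175 and Idua in TMM-normalized CPM (vertical axis, from 0) in each of the 4 E21 (green) and 4 P11 (red) libraries, numbered by replicate, with the mean and SD beside each stage. Lrrk2 sat at 3.80 to 4.30 (E21) and 19.0 to 22.3 CPM (P11), Tmem175 at 27.1 to 29.0 and 67.9 to 74.8 CPM, and the stages overlapped for Idua.

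The spread between libraries was small for each member. The coefficient of variation of the level (the SD as a percentage of the mean) was 5.70% at E21 and 6.65% at P11 for Lrrk2, where counting error alone gives 12% and 5.42%. For Tmem175 it was 3.14% and 4.42%, against 4.58% and 2.90% from counting. For Idua it was 2.22% and 3.95%, against 3.74% and 3.73%. At E21 the libraries therefore differed by less than counting error alone would give for all 3 genes, and the 52 to 82 reads of Lrrk2 set the precision of its E21 level. Reads carried no molecular identifiers, so these figures cover counting error only. The biological coefficient of variation that edgeR estimated was 0.0738 for Lrrk2, 0.0477 for Tmem175 and 0.0461 for Idua, at the 53.9th, 18.4th and 15.3rd percentiles of all genes tested.

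Lrrk2 and Tmem175 placed the P11 libraries in the same order, highest in replicate 2, followed by replicates 1, 3 and 4. In replicate 4 the deviation from the stage mean was -8.16% for Lrrk2 and -6.24% for Tmem175, while Idua was highest there, at 5.71% above its mean. At E21 the orders differed, with replicate 4 lowest for Lrrk2 and highest for both Tmem175 and Idua. These are orders of 4 libraries and carry no test.

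Ratios of raw counts inside a library do not depend on how libraries were scaled. There were 0.677, 0.694, 0.638 and 0.664 Tmem175 reads per Idua read in E21 replicates 1 to 4, and 1.77, 1.73, 1.68 and 1.47 in P11 replicates 1 to 4. Tmem175 thus had fewer reads than its neighbour in every E21 library and more in every P11 library, with means of 0.668 ± 0.0238 and 1.66 ± 0.132 (SD, n = 4) and a fold of 2.49 between stages. Transcript lengths were not used, so a ratio above 1 is a statement about reads and not about molecules. The ratio of Lrrk2 to Idua counts was 0.0970 ± 0.00701 at E21 and 0.477 ± 0.0461 at P11 (SD, n = 4), a fold of 4.91. The ratio of Lrrk2 to Tmem175 counts was 0.145 ± 0.0122 at E21 and 0.286 ± 0.00794 at P11, a fold of 1.97, with the lowest P11 value (0.281) above the highest E21 value (0.159). The stage difference of Lrrk2 was thus the larger one of the pair on a scale free of normalization.

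**Figure D2:**
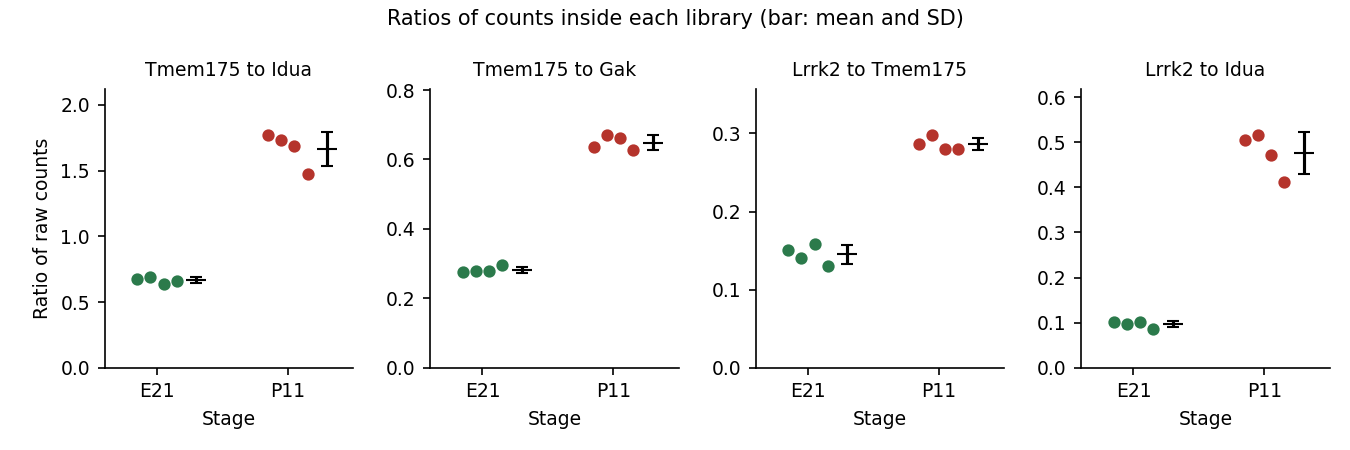
Ratios of raw counts inside each library (vertical axes, from 0) for 4 pairs of genes, with E21 libraries in green, P11 libraries in red and the mean and SD beside each stage. In all 4 panels the P11 points lay above the E21 points without overlap, and for Tmem175 to Idua the values ran from 0.638 to 0.694 at E21 and from 1.47 to 1.77 at P11.

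The genes around Tmem175 and Idua did not share 1 stage pattern. In GRCr8 the order along chromosome 14 was Fgfrl1, Idua, Slc26a1, Dgkq, Tmem175, Gak, Cplx1, Pcgf3, Slc49a3, Atp5me and Pde6b, with 1 other gene starting between Gak and Cplx1. Of 12 genes listed for this neighbourhood, 8 carried a symbol in the gene table used here and all 8 were tested, with Cplx1 and Pde6b called higher at P11 beside Tmem175, which was chosen for its stage difference (16.5% of all genes tested were called in this direction). All P11 levels exceeded all E21 levels for 5 of the 8, Tmem175 included, and the reverse held for 0 of the 8, beside 35.9% and 35.4% of all genes tested.

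Gak, a kinase that helps to uncoat clathrin-coated vesicles, is the divergent partner of Tmem175: the annotated starts lie 254 bases apart on opposite strands, and their 300-base promoter windows share 247 bases, the E-box included, which begins at -69 in the Gak window. The Gak level was 100 ± 2.85 (E21) and 112 ± 4.09 CPM (P11) (SD, n = 4), a log2 fold change of 0.15 ± 0.04 (SE, edgeR adjusted p = 0.00384), under the fold required for a call. The ratio of Tmem175 to Gak counts was 0.276, 0.280, 0.277 and 0.295 in E21 replicates 1 to 4, and 0.635, 0.669, 0.663 and 0.627 in P11 replicates 1 to 4. The stages did not overlap, with means of 0.282 ± 0.00873 and 0.648 ± 0.0209 (SD, n = 4), a fold of 2.30. The 2 genes, which share most of 1 promoter window, were unequal in their change with stage. Tmem175 was chosen for its stage difference, so this contrast follows in part from that choice.

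On the other side, Slc26a1, a sulfate transporter, overlaps Idua in the annotation, as does Dgkq. Slc26a1 had a level of 6.69 ± 0.618 (E21) and 11.5 ± 1.02 CPM (P11) (SD, n = 4), a log2 fold change of 0.78 ± 0.11 (SE, edgeR adjusted p = 5.01e-06) that was under the fold required. Whether reads were counted by strand is not given in the sources used here, so reads of Idua and of its overlapping neighbours may not be fully separated, and reads that overlapped more than 1 gene made up 0.610 to 0.805% of all records per library.

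Further along, Cplx1, which encodes the synaptic vesicle fusion regulator complexin 1, rose from 223 ± 11.3 to 488 ± 38.5 CPM (SD, n = 4), with a log2 fold change of 1.13 ± 0.06 (SE, edgeR adjusted p = 2.21e-11). Pcgf3, a Polycomb-group RING finger gene, had a log2 fold change of 0.05 ± 0.04 (SE, edgeR adjusted p = 0.294), and Atp5me, a subunit of mitochondrial ATP synthase, had 0.04 ± 0.06 (SE, edgeR adjusted p = 0.55). Pde6b, the rod phosphodiesterase subunit, was counted 4, 3, 0 and 1 times at E21 and 62, 127, 129 and 114 times at P11, and its call rests on E21 counts close to the floor of 3. It is also a photoreceptor marker, and the summed photoreceptor markers moved with stage as described with the other cell types.

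**Figure D3:**
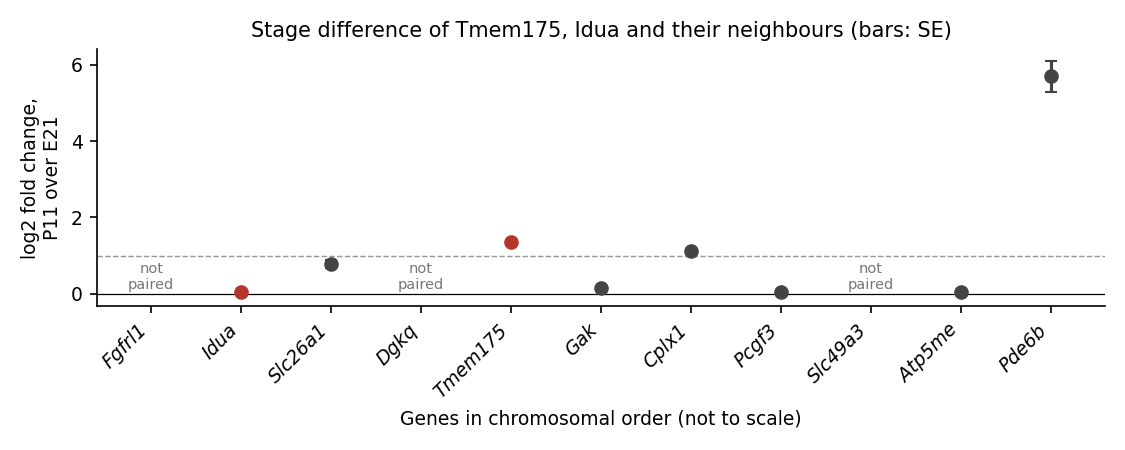
Log2 fold change, P11 over E21, with its SE (vertical axis) for the genes around Tmem175 and Idua (both in red) in chromosomal order, not to scale, with the dashed line at the fold required for a call. Tmem175 at 1.35 stood above Slc26a1 at 0.78, Gak at 0.15 and Idua at 0.04, and genes marked as not paired carried no symbol in the table used.

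Genes that act with LRRK2 were read beside it. Of 28 genes listed (Rab substrates, effectors, the opposing phosphatase, 14-3-3 proteins and chaperones), 7 carried a symbol and were tested, Lrrk2 included, and the Rab substrates are not analysed here. Of the other 6, edgeR called 0 in either direction, beside 16.5% (P11) and 8.16% (E21) of all genes tested, and DESeq2 also called 0. At an unadjusted p below 0.05 in edgeR, 4 of the 6 were higher at P11 and 1 at E21. The share of all genes tested at this looser cut is not given. Such counts, here and below, are therefore not read as a trait of a list. Rilpl1 and Rilpl2 encode proteins that bind Rab GTPases phosphorylated by LRRK2. The Rilpl1 level was 20.5 ± 2.0 (E21) and 30.9 ± 2.98 CPM (P11) (SD, n = 4), a log2 fold change of 0.59 ± 0.08 (SE, edgeR adjusted p = 5.79e-06). For Rilpl2 it was 6.19 ± 0.439 and 11.6 ± 1.10 CPM, a log2 fold change of 0.90 ± 0.11 (SE, edgeR adjusted p = 9.17e-07). Both had all P11 levels above all E21 levels, with fold changes under that required. Spag9, which encodes the motor adaptor JIP4, another binder of phosphorylated Rabs, had the opposite sign, with 335 ± 10.9 (E21) and 249 ± 4.13 CPM (P11) and a log2 fold change of -0.43 ± 0.04 (SE, edgeR adjusted p = 2.15e-08). Ppm1h, the phosphatase that reverses LRRK2's phosphorylation of Rabs, had a log2 fold change of 0.19 ± 0.05 (SE, edgeR adjusted p = 0.00136). Ywhag, a 14-3-3 protein of a family that binds LRRK2, had 0.08 ± 0.06 (SE, edgeR adjusted p = 0.262). The log2 fold changes of these 6 genes thus ran from -0.43 to 0.90.

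Idua belongs to the enzymes of the lysosomal lumen. Of 58 genes listed for lysosomal hydrolases and their helpers, 14 carried a symbol and were tested, with 4 called higher at P11 and 0 at E21 by edgeR (DESeq2 called 4 and 0), beside 16.5% and 8.16% of all genes tested. At an unadjusted p below 0.05, 8 genes were higher at P11 and 1 at E21. The median log2 fold change of the list was 0.62, against -0.00416 over all genes tested. Psap, the precursor of the saposins that assist sphingolipid breakdown, rose from 392 ± 23.3 to 1058 ± 58.4 CPM (SD, n = 4), with a log2 fold change of 1.43 ± 0.05 (SE, edgeR adjusted p = 1.75e-13). Creg1, a lysosomal glycoprotein, rose by 2.36 ± 0.11 on the log2 scale (SE, edgeR adjusted p = 3.38e-12). Hpse, the endoglycosidase that cleaves heparan sulfate chains, rose by 1.55 ± 0.14 (SE, edgeR adjusted p = 3.31e-08), and Scpep1, a serine carboxypeptidase, by 1.18 ± 0.16 (SE, edgeR adjusted p = 4.18e-06).

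Of the enzymes that act on heparan sulfate next to IDUA, Ids (iduronate 2-sulfatase, the step before IDUA) had 245 ± 9.10 (E21) and 151 ± 8.60 CPM (P11), a log2 fold change of -0.70 ± 0.05 (SE, edgeR adjusted p = 4.08e-10). Every E21 library lay above every P11 library for Ids, and the difference was under the fold required. Arsg, a sulfatase of the same pathway, had 11.2 ± 1.04 and 22.0 ± 0.823 CPM, a log2 fold change of 0.97 ± 0.08 (SE, edgeR adjusted p = 8.57e-09) that fell just short of it. Gusb, beta-glucuronidase, had a log2 fold change of 0.10 ± 0.13 (SE, edgeR adjusted p = 0.511). Together with Hpse and Idua, these heparan sulfate enzymes covered log2 fold changes from -0.70 to 1.55 with both signs among them. Ids, Arsg and Gusb were picked for their place in the pathway after their values were known.

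Tmem175 belongs to the lysosomal membrane proteins. Of 49 genes listed there, 17 carried a symbol and 16 were tested, with 6 called higher at P11, Tmem175 among them, and 0 at E21 by edgeR (DESeq2 called 6 and 0), beside 16.5% and 8.16% of all genes tested. At an unadjusted p below 0.05, 8 were higher at P11 and 7 at E21, so the list held values of both signs, and its median log2 fold change was 0.22. Without Tmem175, 5 of 15 were called and the median was 0.02. Abcb9, a lysosomal peptide transporter, rose from 24.6 ± 2.77 to 93.7 ± 5.61 CPM (SD, n = 4), with a log2 fold change of 1.93 ± 0.07 (SE, edgeR adjusted p = 5.54e-13). The other genes called were parts of the proton pump or transporters. Atp6v1g2, Atp6v1a and Atp6ap2, of the vacuolar proton pump that acidifies lysosomes and synaptic vesicles, rose by 1.51 ± 0.06, 1.03 ± 0.04 and 1.07 ± 0.05 on the log2 scale (SE, largest edgeR adjusted p of these 1.46e-11). Atp6v0e1, another subunit of this pump, had the opposite sign, with a log2 fold change of -0.36 ± 0.09 (SE, edgeR adjusted p = 0.0013). Every E21 library lay above every P11 library for Atp6v0e1, and the difference was under the fold required. Slc46a3, a lysosomal transporter, rose by 1.29 ± 0.13 (SE, edgeR adjusted p = 9.36e-08). Further negative values included -0.56 ± 0.04 for Scarb2, the receptor that carries glucocerebrosidase to lysosomes, and -0.73 ± 0.09 for Gpr137b (log2 fold change and SE), neither beyond the fold required. Mcoln1, the other lysosomal cation channel with a symbol here, had 69.8 ± 1.99 (E21) and 70.6 ± 1.47 CPM (P11) (SD, n = 4), a log2 fold change of 0.02 ± 0.04 (SE, edgeR adjusted p = 0.72).

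In the list of endolysosomal trafficking and autophagy genes, 2 of 34 tested genes were called higher at P11 and 0 at E21 (DESeq2 called 2 and 0), beside 16.5% and 8.16% of all genes tested. At an unadjusted p below 0.05, 16 were higher at P11 and 12 at E21. Stages did not overlap for 15 of the 34 (P11 higher) and 12 (E21 higher), beside 35.9% and 35.4% of all genes tested. The pair called was Sqstm1, the autophagy receptor p62, with a log2 fold change of 1.13 ± 0.06 (SE, edgeR adjusted p = 1.35e-10), and Wipi1, which acts in autophagosome formation, with 1.05 ± 0.12 (SE, edgeR adjusted p = 4.83e-07). Across this list log2 fold changes ran from -0.80 to 1.13 with a median of 0.09. In the list of genes linked to Parkinson's disease by rare mutations or risk loci, 10 of the 11 genes with a symbol were tested. Apart from Lrrk2 and Tmem175, which were chosen for their stage difference, 1 of 8 was called higher at P11 (Psap) and 0 at E21, beside 16.5% and 8.16% of all genes tested (DESeq2 called 1 and 0). At an unadjusted p below 0.05, 4 of these 8 were higher at P11 and 3 at E21. Synj1, a phosphatase of synaptic vesicle recycling (log2 fold change 0.70 ± 0.05, SE), and Gak also had all P11 levels above all E21 levels. Uchl1, Eif4g1 and Scarb2 had the reverse, with log2 fold changes of -0.21, -0.15 and -0.56. Such separation was common, at 35.9% (P11 higher) and 35.4% (E21 higher) of all genes tested. Bst1 was counted 4 to 23 times per library, with a log2 fold change of 0.73 ± 0.33 (SE, edgeR adjusted p = 0.0513). Atp10b, a lysosomal lipid flippase counted at most 5 times in any library, was not tested.

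The 5 lists together held 75 tested genes. Without Lrrk2, Tmem175 and Idua, 11 of 72 (15.3%) were called higher at P11, close to the 16.5% of all genes tested. Called higher at E21 were 0 of 72, against 8.16%. Of the 72, 23 were higher at E21 at an unadjusted p below 0.05, with no share of all genes at this cut given. The median log2 fold change of these 72 genes was 0.18. The share called at P11 differed between lists, from 5 of 15 in the membrane list and 4 of 13 in the hydrolase list to 2 of 34 in the trafficking list. The lists were drawn up with results of these data known, and neither these shares nor the count of 0 at E21 was tested. In a test against a log2 fold change of 1 itself (edgeR's glmTreat), Atp6ap2, Atp6v1a, Scpep1, Slc46a3, Sqstm1 and Wipi1 were no longer called.

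**Figure D4:**
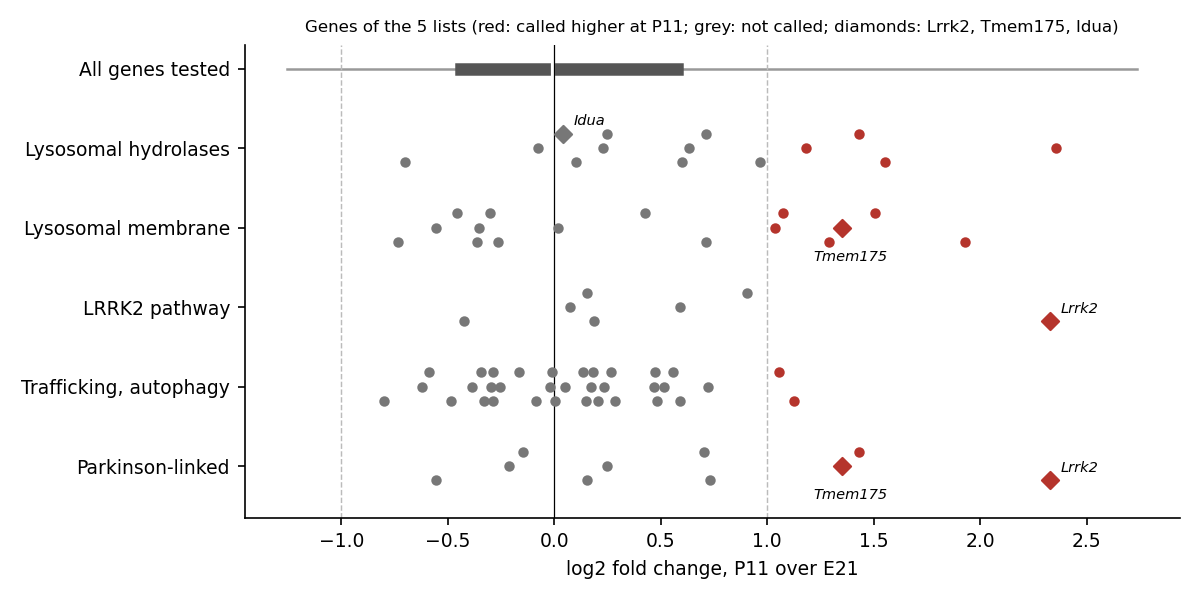
Log2 fold change, P11 over E21 (horizontal axis), of each tested gene in the 5 lists, with genes called higher at P11 in red, genes not called in grey, and diamonds for Lrrk2, Tmem175 and Idua. The bar at the top spans the 25th to 75th and the line the 5th to 95th percentile of all genes tested (-1.26 to 2.74), and the genes of the LRRK2 pathway list other than Lrrk2 (2.33) ran from -0.43 to 0.90.

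The E-box of Tmem175 and Idua also occurred in other genes of the lysosomal lists. Of 42 hydrolase-list genes with a promoter window, 10 (23.8%) held CACGTG, and of 44 membrane-list genes, 11 (25%) did. Over all RefSeq windows the share was 6.42%. The list shares count genes and the latter counts windows of a set not matched to the lists, so the shares are not directly comparable. Their difference was not tested. The genes with the motif that were tested here were Galc, Idua and Nagpa among the hydrolases and Atp6v0e1, Mcoln1, Slc49a4 and Tmem175 among the membrane proteins. Apart from Tmem175 and Idua, their log2 fold changes ran from -0.36 to 0.25, under the size required for a call. The remaining list genes with the motif carried no symbol here, so their stage values were not read. Any link between the motif and the stage difference was not tested. Atp6v0e1 and Mcoln1, whose windows held the longer TCACGTGA, had log2 fold changes of -0.36 ± 0.09 and 0.02 ± 0.04 (SE), and Galc, a galactolipid hydrolase whose window also held it, had 0.25 ± 0.21 (SE).

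The genes most like each member were found by the root mean square difference of log2 CPM profiles, each centred on its mean, over the 8 libraries and 1778 other named genes. For Lrrk2 they were Prrt1 (0.0773), Gabrb2 (0.103), Arhgap44 (0.106), Zfp365 (0.121) and Tmem163 (0.122), where the median gene differed by 1.18. Gabrb2 encodes a subunit of the GABA-A receptor and Tmem163 a zinc transporter. The Gabrb2 level was 15.8 ± 1.59 (E21) and 80.3 ± 8.47 CPM (P11) (SD, n = 4). For Tmem175 they were Camta2 (0.0508), Slc43a2 (0.0561), Timp2 (0.0586), Hlcs (0.0595) and Phyhipl (0.0697), with a median over genes of 0.737. Camta2, a calmodulin-binding transcription activator, had 69.3 ± 2.76 (E21) and 177 ± 9.81 CPM (P11). For Idua they were Rnf216 (0.0374), Flii (0.0385), Lrrc8c (0.0433), Pttg1ip (0.0460) and Mcoln1 (0.0477), with a median of 0.281. The step between stages dominates such profiles for Lrrk2 and Tmem175, and a small difference says that a gene had a step of like size.

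Summed markers of other retinal cells differed between the stages. Microglia and macrophages are known to express Lrrk2 as well as neurons. Of 11 microglial markers, 5 carried a symbol (Ptprc, Aif1, Itgb2, Ncf1 and Srgn), and none reached the level needed for testing. Their summed level was 0.603 to 0.735 (E21) and 0.806 to 2.07 CPM (P11). The highest count of any of them was 16 (Srgn in P11 replicate 4), and the floor of 3 counts stood at 0.152 to 0.219 CPM. Itgb2 had a lower mean at P11 (0.155 to 0.0148 CPM), whereas the other markers of this list had higher means at P11. Across the P11 libraries the microglial sum was highest in replicate 4, where Lrrk2 was lowest, and lowest in replicate 1. That order rests on few reads and was not tested.

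Vascular and mural markers had the largest ratio between stages among the marker lists. The 5 of 9 with a symbol (Flt1, Flt4, Erg, Rgs5 and Notch3) summed to 3.52 to 5.41 (E21) and 283 to 556 CPM (P11). The pericyte and mural gene Rgs5 went from a mean of 1.47 to 232 CPM and Notch3 from 2.12 to 176 CPM. The sum was highest in P11 replicate 4, the library in which Lrrk2 and Tmem175 were lowest and Idua was highest. Without that library the log2 fold change was 2.37 for Lrrk2, 1.39 for Tmem175 and 0.02 for Idua. The vascular sums of P11 replicates 1 to 3 were still 373, 464 and 283 CPM, far above every E21 sum. Stage and vascular content therefore cannot be told apart in this way, and the part of vascular cells was not tested.

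For photoreceptors 6 of 8 markers carried a symbol, with sums of 6.99 to 8.50 (E21) and 29.9 to 49.4 CPM (P11). For amacrine cells 2 of 7 gave sums of 6.29 to 7.30 and 13.3 to 20.97 CPM, and for bipolar cells 4 of 6 gave 41.4 to 49.0 and 87.3 to 94.5 CPM. All 6 photoreceptor markers had positive log2 fold changes, from 0.30 to 5.69. Members of the amacrine and bipolar lists differed in sign: Gad1 (mean 0.856 to 13.8 CPM) and Prkca (38.3 to 87.5 CPM) rose, whereas Prox1, also an amacrine marker, fell by 1.18 on the log2 scale (edgeR adjusted p = 1.6e-06) and the bipolar markers Grm6 and Lhx4 had lower means at P11 (5.97 to 3.37 and 0.842 to 0.400 CPM). For astrocytes and Müller glia 3 of 7 gave 0.669 to 0.861 and 1.15 to 2.62 CPM, with Gfap at or below 3 counts in every library, S100b higher (mean 0.0294 to 1.64 CPM) and Sox9 lower (0.623 to 0.354 CPM) at P11, and for the oligodendrocyte lineage 3 of 7 gave 36.3 to 46.8 and 18.8 to 21.4 CPM. The part of any of these cells in the stage differences of Lrrk2 and Tmem175 was not tested.

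Of 13 RGC markers 3 carried a symbol, so the cell type could be checked only in part, and Thy1, Rbpms and Pou4f1 are not analysed here. The neuronal gene Rbfox3 had 119 (E21) and 126 CPM (P11) (log2 fold change 0.08), and the growth cone gene Gap43 fell by 1.46 on the log2 scale (edgeR adjusted p = 2.48e-14). The third marker, Uchl1, went from a mean of 1603 (E21) to 1382 CPM (P11), and Gap43 from 1711 to 623 CPM. The sum of the 3 was 3355 to 3497 (E21) and 2047 to 2176 CPM (P11), and the fall was largest in Gap43. Counted reads per library ranged from 13899299 to 20116017.

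**Figure D5:**
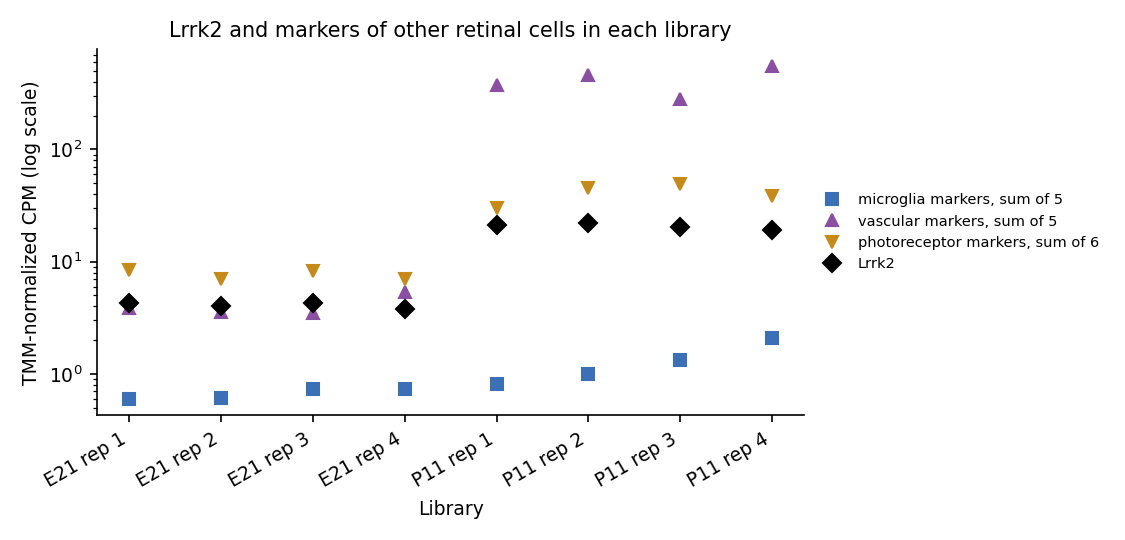
Level of Lrrk2 and summed levels of microglial (5 genes), vascular (5 genes) and photoreceptor (6 genes) markers in each of the 8 libraries, in TMM-normalized CPM on a log axis. At P11 Lrrk2 stood at 19.0 to 22.3 CPM, the microglial sum at 0.806 to 2.07 CPM and the vascular sum at 283 to 556 CPM.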

How the data were processed

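RNA was measured in 8 libraries of immunopanned RGCs, 4 per stage. The values deposited by the authors are raw HTSeq counts per Ensembl gene. Reads had been trimmed with cutadapt 1.16, filtered with PRINSEQ, aligned to the rat assembly Rnor_6.0 with STAR 2.5.3a and counted with HTSeq 0.6.1, per the submitters' processing notes and methods. The annotation release and strand setting are not given in the sources used here. Rows naming no gene were left out of library sizes. Gene symbols came from the study's supplementary gene table, of which a part was held (1998 IDs, of which 1779 were tested), so genes outside it were left out. That table's other columns hold the authors' comparisons and were not used.

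Counts were filtered with filterByExpr, scaled by TMM and fitted with edgeR 4.0.16 (robust quasi-likelihood, limma 3.58.1, R 4.3.3), with stage as the only term and Benjamini-Hochberg adjustment over all genes. The scripts were tested on simulated data. The members and gene lists were chosen with earlier results of these data known. Named genes were the 3 members, every gene with a symbol of the LRRK2 pathway, neighbour and microglial lists, up to 5 called genes per direction in each other list, and the 5 nearest profiles per member; other genes named were chosen after their values were seen. Alternatives were DESeq2 1.42.0, other scalings, filters and thresholds, a replicate block, and each library left out. No GRCr8 coordinate was applied to the counts. Libraries of 1 stage differed by more than sampling noise, so none was counted as a repeat.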

Additional observations from a re-analysis of the deposited data

How the results depend on the processing

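Of 223 alternative values computed for the fold changes of Lrrk2, Tmem175 and Idua, the list counts and the ratio of Tmem175 to Idua, 219 stayed within the limits set and 4 moved. A reversal was looked for only in the fold changes of Lrrk2 and Tmem175, chosen for their stage difference, and there were 0. The limits were loose for list counts: 3 or 5 genes in place of 4 in the hydrolase list at P11 stayed within them. The list counts at E21 were 0 throughout and have no direction, so they add to the 219 without showing stability. The LRRK2 pathway count of 1 at P11 was Lrrk2 itself. The log2 fold change of Idua was 0.0959 with library size alone and 0.0899 with upper-quartile scaling, against 0.0413 in the main fit. The median over all genes was 0.0502 and 0.0444 under these scalings, against -0.00416 in the main fit. Under glmTreat, the count called higher at P11 was 3 in the lysosomal membrane list and 0 in the trafficking and autophagy list, where 1 gene had an unadjusted p below 0.05. By construction glmTreat requires the fold change itself to exceed the threshold. Arsg was called with library size alone, upper-quartile scaling, at least 10 counts in every library, or without E21 replicate 3, with a log2 fold change of at most 1.02.

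With each library left out in turn, log2 fold changes ran from 2.29 to 2.37 for Lrrk2, 1.33 to 1.39 for Tmem175 and 0.02 to 0.06 for Idua. Deviations of same-numbered E21 and P11 libraries from their stage means had correlations of -0.0268 to 0.0780. The best-correlated P11 library was the same-numbered one for E21 replicates 2 and 4, and another for replicates 1 and 3. These values showed no clear pairing by replicate number, but low correlations cannot exclude one. With a replicate block the log2 fold changes were 2.33, 1.35 and 0.04, and the list counts were 4, 6, 1, 2 and 3 at P11 and 0 in each list at E21, the same counts as without it. The depth limits Lrrk2 at E21 most, at 52 to 82 reads per library.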
